A study of Mus musculus with 18 samples.

Results

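Serum response factor (SRF) and the co-activator YAP drive genes of the actin cytoskeleton and of cell adhesion, and 10 of the genes most often read as their output were followed through heat stress and tunicamycin in NIH3T3 cells. The 10 genes, out of 20207 listed for every library, were chosen by name: the transcription factor gene Srf, the smooth muscle actin genes Acta2 and Actg2, the actin-binding protein genes Tagln and Cnn1, the myosin light chain gene Myl9, the adhesion gene Vcl, and the YAP targets Ctgf, Cyr61 and Ankrd1.

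mRNA-seq was available for 18 libraries of NIH3T3, an established line of mouse fibroblasts, in 6 groups of 3. All groups carried DD-GFP, a destabilizing domain fused to superfolder GFP and stably expressed in cells sorted for high fluorescence, and all were kept in Shield-1 (S1), the ligand that holds the domain folded. The control (0 min) received no stress. Heat stress (HS), a shift to a higher temperature, lasted 45 or 135 min, and tunicamycin, which blocks N-linked glycosylation and so causes misfolding in the endoplasmic reticulum, was present for 45, 135 or 405 min. HS was not carried to 405 min because many cells died. The labels do not say whether the 3 libraries of a group came from separate cultures, so the p-values measure the spread between these libraries, which may be technical. The cells are 1 transgenic line, and in such bulk RNA fewer expressing cells and less mRNA per cell cannot be told apart.

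SRF binds the CArG box and works with either of a pair of co-factor families. The MRTF proteins are held in the cytoplasm by monomeric actin and enter the nucleus when actin polymerizes, and the TCF proteins respond to growth factor signalling and drive immediate-early genes such as Fos and Egr1. YAP and its paralog TAZ bind no DNA themselves and act through TEAD factors, and they are restrained by the Hippo kinases and released by tension and spreading. In fibroblasts both pathways read the state of the cytoskeleton, and high Acta2 and Ctgf are classical marks of a contractile, myofibroblast-like state.

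The upstream sequences differ in the motifs of these pathways that they hold, so those with a motif are given here as the 250 bases before the transcription start annotated by RefSeq on GRCm38.p6, for the 7 members matched in that table (Srf, Acta2, Cnn1, Myl9, Vcl, Cyr61 under its current symbol Ccn1, and Ankrd1). Capitals mark CArG boxes, allowing up to 1 mismatch in the 6 central A or T positions, and the TEAD motif GGAATG on either strand. Each stretch also matched mm9, the build of the files, exactly once, at the position given.
Srf, chr17:46693112-46693361 of mm9, minus strand: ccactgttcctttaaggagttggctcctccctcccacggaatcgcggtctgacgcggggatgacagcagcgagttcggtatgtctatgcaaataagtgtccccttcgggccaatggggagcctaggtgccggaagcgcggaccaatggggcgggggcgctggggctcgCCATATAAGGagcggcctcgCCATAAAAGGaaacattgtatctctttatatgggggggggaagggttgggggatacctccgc
Acta2, chr19:34329864-34330113 of mm9, minus strand: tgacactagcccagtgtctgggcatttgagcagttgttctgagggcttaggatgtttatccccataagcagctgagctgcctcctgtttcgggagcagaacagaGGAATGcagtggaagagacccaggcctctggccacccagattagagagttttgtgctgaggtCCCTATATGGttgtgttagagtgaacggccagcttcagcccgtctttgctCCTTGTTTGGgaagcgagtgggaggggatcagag
Myl9, chr2:156600950-156601199 of mm9, plus strand: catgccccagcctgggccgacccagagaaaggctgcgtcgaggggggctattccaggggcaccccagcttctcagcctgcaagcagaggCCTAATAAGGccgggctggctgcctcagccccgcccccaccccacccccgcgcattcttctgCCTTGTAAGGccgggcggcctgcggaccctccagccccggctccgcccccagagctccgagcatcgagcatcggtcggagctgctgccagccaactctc
Vcl, chr14:21748370-21748619 of mm9, plus strand: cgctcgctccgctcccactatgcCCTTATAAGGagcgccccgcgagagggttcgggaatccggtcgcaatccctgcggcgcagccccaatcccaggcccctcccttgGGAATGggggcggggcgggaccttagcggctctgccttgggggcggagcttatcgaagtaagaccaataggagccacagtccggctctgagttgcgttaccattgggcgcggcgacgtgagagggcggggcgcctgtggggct
Cyr61, chr3:145312950-145313199 of mm9, minus strand: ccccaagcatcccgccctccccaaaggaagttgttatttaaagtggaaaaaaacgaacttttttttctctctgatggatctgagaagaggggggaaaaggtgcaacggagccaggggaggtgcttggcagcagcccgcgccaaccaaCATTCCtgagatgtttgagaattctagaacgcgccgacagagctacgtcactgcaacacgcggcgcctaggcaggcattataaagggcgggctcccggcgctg
Ankrd1, chr19:36194335-36194584 of mm9, minus strand: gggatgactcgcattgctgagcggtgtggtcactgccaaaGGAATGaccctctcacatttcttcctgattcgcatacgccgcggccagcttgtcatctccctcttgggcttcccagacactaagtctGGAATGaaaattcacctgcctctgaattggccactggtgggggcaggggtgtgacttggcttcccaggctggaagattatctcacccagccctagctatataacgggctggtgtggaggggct

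Srf carried 2 exact CArG boxes, starting 82 and 62 bases before the start, so the gene for the factor holds the letters that the factor binds. Vcl held 1 exact box at 227 bases, and Myl9 held 2 boxes at 161 and 99 bases, of which 1 was exact. The 2 boxes of Acta2, at 84 and 34 bases, each had 1 mismatch. The TEAD motif stood once upstream of Acta2 (146 bases), Vcl (143 bases) and Cyr61 (103 bases, on the opposite strand) and 2 times upstream of Ankrd1 (210 and 123 bases). The Cnn1 window held neither set of letters. Over 32851 RefSeq windows of this length, 1.47% held an exact CArG box, 8.59% a box with at most 1 mismatch and 12.6% the TEAD motif, so 1 TEAD match in a window is common, and a match is a description of letters and not of binding.

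**Figure D1:**
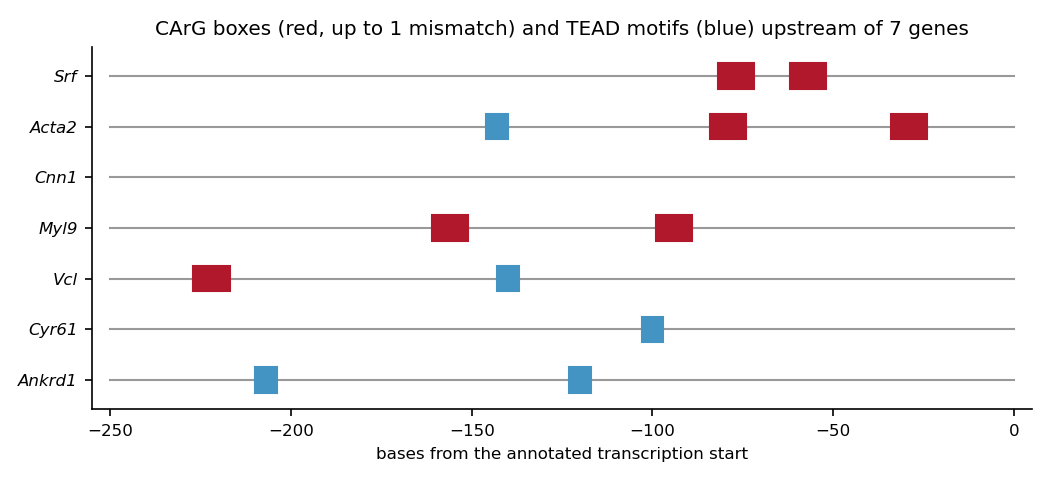
Position of CArG boxes (red, up to 1 mismatch) and TEAD motifs (blue) in the 250 bases before the annotated start of the 7 matched genes, on a horizontal axis in bases from the start. Srf, Acta2, Myl9 and Vcl carry CArG boxes, Cyr61 and Ankrd1 carry only TEAD motifs, and Cnn1 carries neither.

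The 18 libraries held 33415592 to 66478268 counted reads, so that 3 reads corresponded to 0.0451 to 0.0898 CPM (read counts brought to a common library size by TMM), a floor that covers counting error only. The 10 genes had at least 24 reads (Cnn1) in every library. Fibroblast markers were high in the control (Col1a1 1538, Vim 2641 and S100a4 2899 RPKM), and of the 5 smooth muscle markers Myh11, Des, Lmod1 and Myocd lay between 0.00134 and 0.188 RPKM, with Smtn at 37.9 RPKM. Replicates were uneven: 68.7% of the spread within groups lay on a single axis of genes, which followed transcript GC content (Spearman 0.70 across genes), and HS replicate 3 at 45 min and HS replicates 1 and 2 at 135 min stood farthest out (scores of -85.6, -61.1 and 76.3). Genes are called higher or lower at an adjusted p under 0.05 from edgeR's quasi-likelihood test. Scaling by library totals in place of TMM lowered the median log2 fold change of all genes from -0.02 to -0.19 at 135 min of HS and changed the split of called genes from 605 higher and 336 lower to 498 and 426, and at 45 min of tunicamycin from 510 and 276 to 878 and 180.

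The strongest change was late and under tunicamycin. At 405 min, 6 of the 10 genes fell (Acta2, Actg2, Tagln, Cnn1, Vcl and Ctgf), where 23.5% of the 12731 genes tested were called lower, and 2 rose (Cyr61 and Ankrd1), where 23.3% were called higher. Their median log2 fold change was -0.65, against -0.01 over all genes. Srf and Myl9 were called in no comparison with the control. All 10 members were tested in every comparison. The 8 fibroblast markers, summed, were also lower at 405 min of tunicamycin, at 4324 to 4823 RPKM a library against 9150 to 9636 in the control. Most of that sum is S100a4, Vim, Col1a1 and Col1a2 (control means of 2899, 2641, 1538 and 1134 RPKM). Not every marker fell as far: Fn1 and Thy1 (control means of 891 and 125 RPKM) lay at 791 and 105 RPKM or more in every library. The 5 smooth muscle markers, whose sum is nearly all Smtn, overlapped, at 28.8 to 33.3 against 33 to 45.1 RPKM. The part of these markers in the result was not tested.

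At 45 min of tunicamycin, Acta2, Actg2, Tagln and Ctgf were called lower, 4 of 10 against a background of 2.17%, and Cyr61 and Ankrd1 were called higher, 2 of 10 against 4.01%. All comparisons with the control share its 3 libraries. Most of the 45-min calls were lost when 1 of several libraries was left out. Calls over all genes fell too, from 786 to between 58 and 264, without any library other than control replicate 1. Leaving out any library other than control replicate 1 lost those of Acta2, Ctgf and Cyr61 (adjusted p up to 0.172, 0.172 and 0.14, edgeR), leaving out control replicate 3 or any tunicamycin library lost those of Tagln and Ankrd1 (up to 0.0983 and 0.119, edgeR), and only that of Actg2 was kept in all 6 fits.

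At 135 min of tunicamycin no member passed, in either direction, where 0.126% of all genes were called higher and 0.00785% lower. An unadjusted p under 0.05 was reached by 4 of the 10 members and by 18.6% of all genes, and the DESeq2 Wald test called 1 member, Actg2, and 612 genes. Under HS, 135 min brought 2 members down, Actg2 and Ctgf, against 2.64% of all genes called lower, and none up, against 4.75%. At 45 min of HS none of the 12731 genes passed in either direction (0%), with 2480 genes and 3 of the 10 members at an unadjusted p under 0.05, and the DESeq2 Wald test called 446 genes, among them Actg2 (lower) and Cyr61 (higher). Both HS calls at 135 min were lost without control replicate 2, without control replicate 3 or without HS replicate 3 (adjusted p up to 0.0981 for Actg2 and 0.116 for Ctgf, edgeR). Those fits called 15, 11 and 11 of the 12731 genes, against 941 with all libraries.

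**Figure D2:**
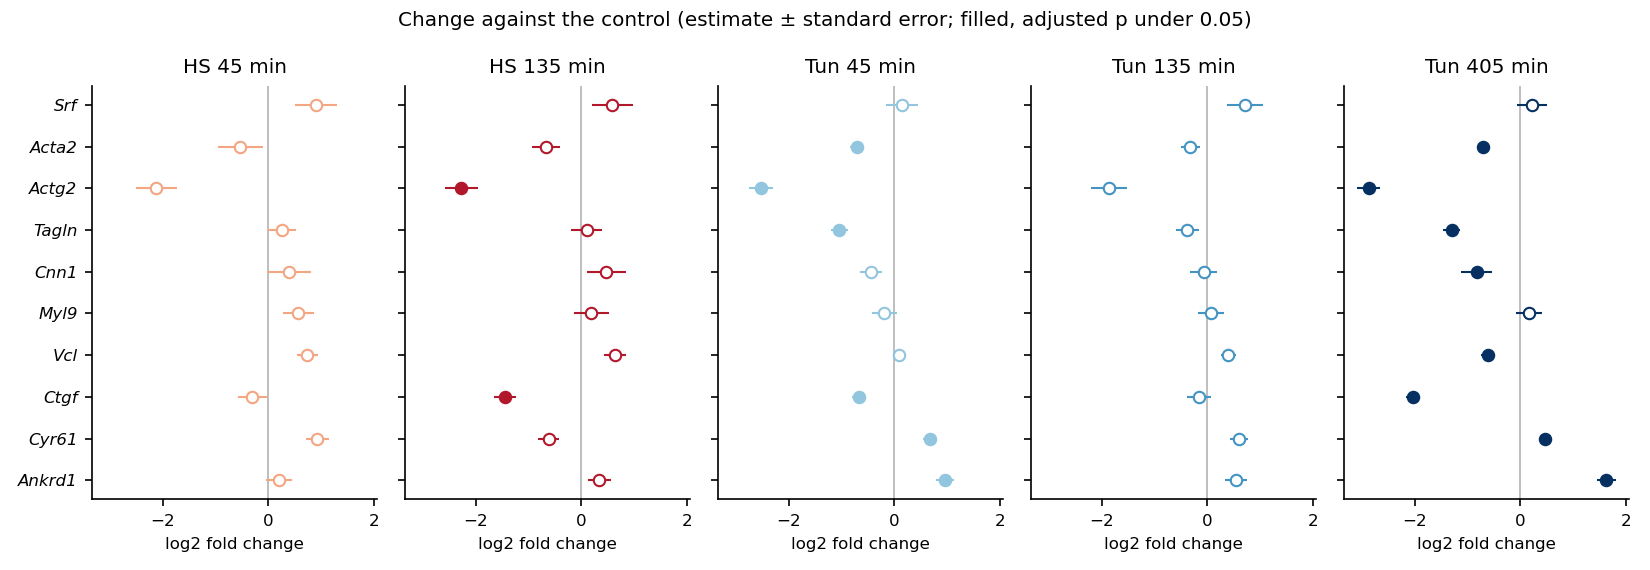
Log2 fold change of each gene against the control (horizontal axis) in the 5 comparisons, with the standard error as a bar and filled points for an adjusted p under 0.05. Actg2 is far to the left in all 5 panels (-2.87 to -1.87), Ctgf moves left at 135 min of HS (-1.44) and at 405 min of tunicamycin (-2.04), and Ankrd1 moves right under tunicamycin (0.96, 0.54 and 1.63).

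In the control the 10 mRNAs covered a wide range per length, as deposited RPKM. Acta2 stood at 618 ± 29 RPKM (SD, n = 3), rank 110 of the 20207 genes. Ctgf followed with 183 ± 8.49, Tagln with 102 ± 15.7 and Cyr61 with 80.4 ± 10.9 RPKM (SD, n = 3). Ankrd1 (37.5), Vcl (36.7) and Srf (36.3 RPKM) did not differ beyond their spread. Myl9 (10.9), Actg2 (7.38) and Cnn1 (0.461 RPKM) were lowest, so these fibroblasts held much alpha smooth muscle actin mRNA and little Cnn1 mRNA. That does not extend to the other calponin genes, as Cnn2 and Cnn3 averaged 370 and 337 CPM in the control, against 1.07 CPM for Cnn1.

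**Figure D3:**
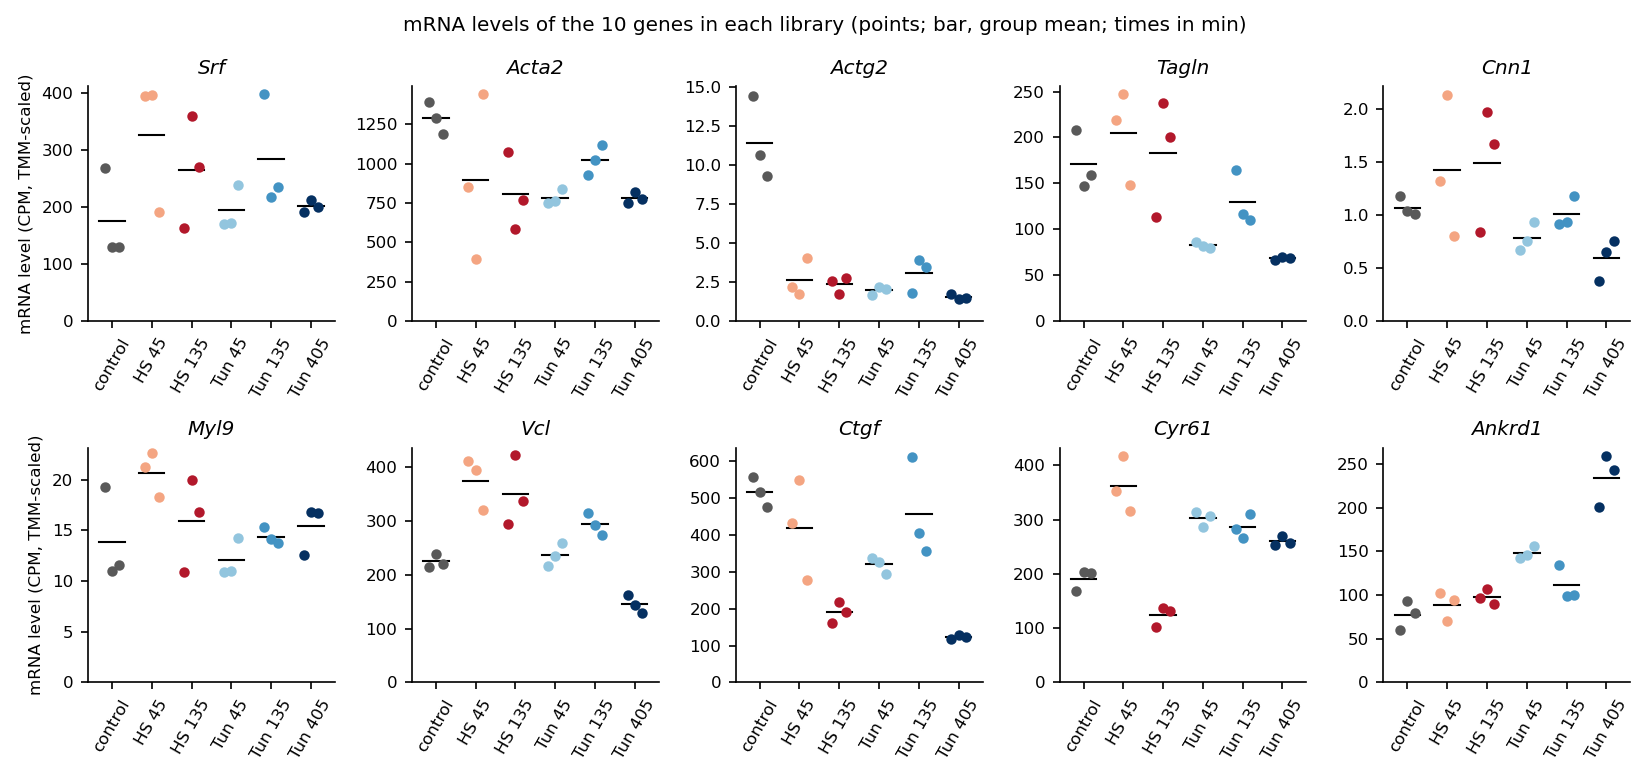
mRNA level of each gene in CPM (vertical axes, each from 0) in the 18 libraries, by group, with 1 point a library and a bar at the group mean. Control points of Actg2 (9.29 to 14.4 CPM) lie above every stressed library, and Acta2 points scatter most within the HS groups.

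Actg2 (chromosome 6, 83462903 to 83486245 of mm9) encodes gamma smooth muscle actin and showed the largest fall of the 10 genes. It measured 14.4, 10.6 and 9.29 CPM in the 3 control libraries. After HS it measured 2.18, 1.7 and 4 CPM at 45 min and 2.55, 1.75 and 2.78 CPM at 135 min. Under tunicamycin it measured 1.68, 2.18 and 2.03 CPM at 45 min, 1.79, 3.92 and 3.47 CPM at 135 min and 1.72, 1.39 and 1.49 CPM at 405 min. All 15 stressed libraries lay below the lowest control library, and the 5 stressed groups overlapped their neighbours in the order of levels.

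The fall of Actg2 was 4.83-fold at 135 min of HS (log2 -2.27 ± 0.31 SE, adjusted p = 0.0139, edgeR), 5.75-fold at 45 min of tunicamycin (-2.52 ± 0.23, adjusted p = 0.00208, edgeR) and 7.32-fold at 405 min (-2.87 ± 0.22, adjusted p = 5.08e-05, edgeR). At 45 min of HS the estimate was nearly as large, -2.12 ± 0.39, with an adjusted p of 0.227 (edgeR), and after 135 min with tunicamycin it was -1.87 ± 0.34 with an adjusted p of 0.0802 (edgeR). From 135 to 405 min of tunicamycin Actg2 fell again, by 1.02 on the log2 scale (SE 0.30, adjusted p = 0.0278, edgeR), a call lost without any library other than tunicamycin replicate 1 at 135 min (up to 0.101, edgeR). Actg2 encodes a protein nearly identical to the other actins, and its counts, 74 to 595 reads a library, are uncertain where the authors' counting could divide reads between these genes, which was not tested.

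Acta2 (chromosome 19, 34315581 to 34329826) encodes alpha smooth muscle actin, the defining mRNA of myofibroblasts. The control libraries held 1394, 1291 and 1188 CPM. Tunicamycin libraries held 748, 763 and 838 CPM at 45 min, 926, 1025 and 1117 CPM at 135 min and 751, 821 and 777 CPM at 405 min. The tunicamycin libraries all lay below the control, with those at 135 min above the ones at 45 and 405 min. The fall was 1.63-fold both at 45 min (log2 -0.71 ± 0.13 SE, adjusted p = 0.0246, edgeR) and at 405 min (-0.70 ± 0.13, adjusted p = 0.00333, edgeR). At 135 min the estimate was -0.32 ± 0.18 (adjusted p = 0.38, edgeR).

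HS scattered Acta2 widely. At 45 min the libraries held 854, 395 and 1442 CPM, and at 135 min 1073, 587 and 767 CPM, so that HS replicate 3 at 45 min exceeded every control library. That replicate had the axis score of -85.6, and the lowest libraries, replicate 2 at either time, had scores of 53.6 and 76.3. The log2 fold changes were -0.53 ± 0.43 at 45 min (adjusted p = 0.441, edgeR) and -0.67 ± 0.27 at 135 min (adjusted p = 0.141, edgeR). Without HS replicate 3 the value at 45 min was -1.05 (adjusted p = 0.0363, edgeR), and without HS replicate 1 the value at 135 min was -0.93 (adjusted p = 0.0317, edgeR), both past the threshold. With an offset for GC content they were -0.43 (adjusted p = 0.459, edgeR) and -0.62 (adjusted p = 0.0596, edgeR). Over all alternatives the adjusted p (edgeR or DESeq2) ran from 0.0363 to 0.812 at 45 min and from 0.0317 to 0.364 at 135 min.

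The Acta2 to Actg2 ratio, on RPKM, gives the same contrast within a library. It was 71.7, 89.8 and 94.5 in the control and at least 172 in every stressed library, with 323, 435 and 384 at 405 min of tunicamycin. Both actin mRNAs were called lower there, and Actg2 had the larger fold.

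Tagln (chromosome 9, 45737711 to 45743981) encodes transgelin, a calponin-related protein that bundles actin. It measured 208, 147 and 159 CPM in the control and, under tunicamycin, 85.5, 82.1 and 79.2 CPM at 45 min, 165, 117 and 110 CPM at 135 min and 66.4, 70.1 and 68.8 CPM at 405 min. At 45 and 405 min all libraries lay below the control, while those at 135 min overlapped it. Tagln fell 2.06-fold at 45 min (log2 -1.04 ± 0.16 SE, adjusted p = 0.0138, edgeR) and 2.47-fold at 405 min (-1.30 ± 0.16, adjusted p = 0.00039, edgeR). From 135 to 405 min it fell by 0.95 on the log2 scale (SE 0.17, adjusted p = 0.00387, edgeR).

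HS left Tagln within the range of its spread. It measured 219, 247 and 148 CPM at 45 min and 113, 237 and 200 CPM at 135 min, with log2 fold changes of 0.26 ± 0.26 and 0.10 ± 0.30 (adjusted p = 0.532 and 0.847, edgeR). Against tunicamycin at 45 min, all HS libraries were higher, by 1.31 ± 0.22 on the log2 scale (adjusted p = 0.0774, edgeR). Tagln shares 65 exon bases with Pcsk7 on the opposite strand, and since no source states that counting used strand, reads there cannot be told apart.

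Cnn1 (chromosome 9, 21903697 to 21913665) encodes calponin 1, an inhibitor of myosin ATPase and a marker of differentiated smooth muscle. With 24 to 98 reads a library it was the least expressed of the 10 genes. The control libraries held 1.18, 1.04 and 1.01 CPM and those at 405 min of tunicamycin 0.378, 0.653 and 0.756 CPM, a fall of 1.78-fold with no overlap (log2 -0.83 ± 0.29 SE, adjusted p = 0.042, edgeR). The call was lost without control replicate 2 or 3 or without tunicamycin replicate 1 or 2 (adjusted p up to 0.091, edgeR). HS libraries ranged from 0.799 to 2.13 CPM at 45 min and from 0.838 to 1.97 CPM at 135 min, and overlapped the control.

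Myl9 (chromosome 2, 156601200 to 156607393) encodes a regulatory light chain of non-muscle and smooth muscle myosin. It measured 19.3, 11 and 11.6 CPM in the control and between 10.9 and 22.6 CPM in the stressed libraries. Every stressed group overlapped the control. The largest log2 estimate, at 45 min of HS, was 0.57 ± 0.29 (adjusted p = 0.279, edgeR). At 405 min of tunicamycin it was 0.16 ± 0.24 (adjusted p = 0.611, edgeR), and 0.47 (adjusted p = 0.0189, edgeR) without control replicate 1. The adjusted p of that comparison ran from 0.0189 to 0.992 over the alternatives.

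Vcl (chromosome 14, 21748655 to 21852895) encodes vinculin, which links integrin adhesions and cadherin junctions to actin. The control held 214, 239 and 220 CPM. HS libraries held 410, 393 and 319 CPM at 45 min and 293, 421 and 337 CPM at 135 min. Tunicamycin libraries held 215, 235 and 259 CPM at 45 min, 314, 292 and 274 CPM at 135 min and 163, 143 and 129 CPM at 405 min. Both HS groups and tunicamycin at 135 min lay wholly above the control, and tunicamycin at 405 min lay wholly below it.

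Of these differences, the one called was the fall at 405 min, 1.52-fold (log2 -0.61 ± 0.13 SE, adjusted p = 0.0054, edgeR), and within tunicamycin Vcl fell by 1.03 from 135 to 405 min (SE 0.14, adjusted p = 0.000924, edgeR). The HS estimates were 0.74 ± 0.20 at 45 min (adjusted p = 0.227, edgeR) and 0.64 ± 0.21 at 135 min (adjusted p = 0.0912, edgeR). They passed the threshold without HS replicate 3 at 45 min (0.84, adjusted p = 0.00602, edgeR) and without HS replicate 1 at 135 min (0.76, adjusted p = 0.0372, edgeR), within adjusted p ranges over all alternatives of 0.00229 to 0.615 and 0.000901 to 0.3. Vcl shares 2087 exon bases with Ap3m1 on the opposite strand.

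Srf (chromosome 17, 46683788 to 46693111) encodes the factor itself. Its control libraries held 268, 129 and 130 CPM. HS libraries held 395, 396 and 191 CPM at 45 min and 164, 360 and 271 CPM at 135 min. Tunicamycin libraries held 171, 172 and 238 CPM at 45 min, 399, 218 and 236 CPM at 135 min and 192, 213 and 200 CPM at 405 min. All 5 stressed groups overlapped the control, of which replicate 1 lay above 10 of the 15 stressed libraries.

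Srf estimates against the control were all above 0, at 0.90 ± 0.40 and 0.59 ± 0.38 (log2, SE) for HS and 0.15 ± 0.30, 0.71 ± 0.34 and 0.22 ± 0.28 for tunicamycin at 45, 135 and 405 min, with adjusted p between 0.259 and 0.792 (edgeR). Srf mRNA is rich in GC (60.1%, the 95th percentile of the tested genes), and in each of the 6 groups its highest library was the one with the highest axis score, such as control replicate 1 (23.1), HS replicate 2 at 135 min (76.3) and tunicamycin replicate 1 at 135 min (55.2). The low HS replicate 3 at 45 min and HS replicate 1 at 135 min had scores of -85.6 and -61.1. Beyond the 2 adjusted fits described next, the part of this axis in the Srf levels was not tested. With the GC offset the 5 estimates were 0.20, 0.11, 0.17, 0.47 and 0.13 in the same order (adjusted p between 0.186 and 0.697, edgeR). With 1 surrogate variable, an axis of spread estimated from the counts, Srf was called higher in 2 comparisons. These were HS at 45 min (0.50, adjusted p = 0.0437, edgeR) and tunicamycin at 135 min (0.51, adjusted p = 0.0498, edgeR). That fit called 3407 and 2219 of the 12731 genes there. Without control replicate 1, tunicamycin at 45 min gave 0.58 (adjusted p = 0.0423, edgeR) and at 405 min 0.67 (adjusted p = 0.000183, edgeR), and without HS replicate 3, HS at 45 min gave 1.17 (adjusted p = 0.0257, edgeR). Over all alternatives the adjusted p of these 3 comparisons ran from 0.0423 to 0.994, from 0.000183 to 0.956 and from 0.0257 to 0.615.

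The YAP targets did not move together. Ctgf (chromosome 10, 24315248 to 24318488), now also named Ccn2, encodes connective tissue growth factor, a secreted matricellular protein that promotes fibrosis. The control libraries held 557, 515 and 475 CPM. HS libraries held 432, 548 and 277 CPM at 45 min and 162, 218 and 190 CPM at 135 min. Tunicamycin libraries held 338, 327 and 295 CPM at 45 min, 612, 404 and 355 CPM at 135 min and 119, 129 and 124 CPM at 405 min. The groups wholly below the control were HS at 135 min and tunicamycin at 45 and 405 min, and the last of these was the lowest of all.

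Ctgf fell 2.71-fold at 135 min of HS (log2 -1.44 ± 0.21 SE, adjusted p = 0.0155, edgeR), 1.59-fold at 45 min of tunicamycin (-0.67 ± 0.13, adjusted p = 0.0307, edgeR) and 4.1-fold at 405 min (-2.04 ± 0.13, adjusted p = 2.2e-05, edgeR). Between 135 and 405 min of tunicamycin it fell by 1.91 (SE 0.22, adjusted p = 0.000483, edgeR). HS and tunicamycin at 135 min differed by -1.29 ± 0.25 with no overlap (adjusted p = 0.0549, edgeR). Ctgf shares 570 exon bases with the lincRNA gene Gm15270 on the opposite strand.

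Cyr61 (chromosome 3, 145309935 to 145312949) encodes the closest relative of CTGF in the CCN family, an immediate-early angiogenic matricellular protein. It measured 168, 203 and 201 CPM in the control, 353, 417 and 315 CPM at 45 min of HS and 103, 137 and 132 CPM at 135 min of HS. Tunicamycin libraries held 313, 286 and 306 CPM at 45 min, 282, 266 and 310 CPM at 135 min and 253, 270 and 257 CPM at 405 min. Under HS the 9 libraries thus fell into 3 separate ranges, above the control at 45 min and below it at 135 min, whereas every tunicamycin library lay above the control.

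Cyr61 rose 1.6-fold at 45 min (log2 0.68 ± 0.13 SE, adjusted p = 0.0273, edgeR) and 1.39-fold at 405 min of tunicamycin (0.47 ± 0.12, adjusted p = 0.0137, edgeR), the latter lost without tunicamycin replicate 2 or 3 (adjusted p up to 0.067, edgeR). At 135 min the estimate was 0.60 ± 0.17 (adjusted p = 0.142, edgeR). The HS estimates were 0.93 ± 0.21 at 45 min (adjusted p = 0.227, edgeR), or 1.02 (adjusted p = 0.0046, edgeR) without HS replicate 3, and -0.62 ± 0.20 at 135 min (adjusted p = 0.0933, edgeR). Over all alternatives the adjusted p ran from 0.000417 to 0.615 at 45 min and from 0.000339 to 0.305 at 135 min of HS.

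Ankrd1 (chromosome 19, 36186455 to 36194334) encodes a stretch-responsive ankyrin repeat protein of muscle that is a standard YAP readout in other cells. The control held 59.7, 92.7 and 79.1 CPM. HS libraries held 102, 70.6 and 94.3 CPM at 45 min and 96.7, 107 and 89.9 CPM at 135 min, and overlapped the control. Tunicamycin libraries held 142, 146 and 156 CPM at 45 min, 134, 99.5 and 99.6 CPM at 135 min and 201, 259 and 243 CPM at 405 min, all above the control. It rose 1.94-fold at 45 min (log2 0.96 ± 0.17 SE, adjusted p = 0.0225, edgeR) and 3.09-fold at 405 min (1.63 ± 0.18, adjusted p = 0.000297, edgeR), and from 135 to 405 min it rose by 1.06 (SE 0.17, adjusted p = 0.00234, edgeR).

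The ratio of Ctgf to Cyr61 RPKM shows the divergence of the 2 CCN genes within single libraries, as a description with no test. It was 2.8, 2.15 and 1.99 in the control, 1.03, 1.11 and 0.742 at 45 min and 1.32, 1.35 and 1.21 at 135 min of HS. Under tunicamycin it was 0.911, 0.963 and 0.815 at 45 min, 1.83, 1.28 and 0.966 at 135 min and 0.396, 0.404 and 0.407 at 405 min. Ctgf was thus the more abundant mRNA per length in every control library and the less abundant one in all 3 libraries at 405 min of tunicamycin.

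**Figure D4:**
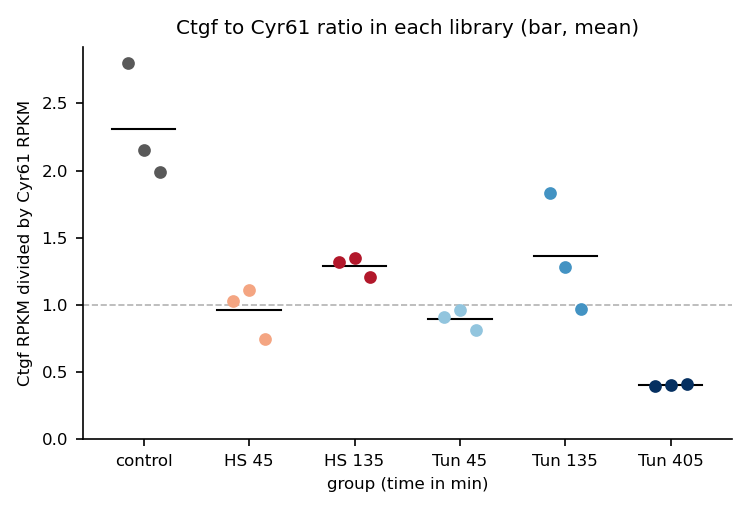
Ratio of Ctgf to Cyr61 RPKM (vertical axis, from 0) in each of the 18 libraries, by group, with a bar at the mean and a dashed line at 1. The control libraries lie between 1.99 and 2.8 and those at 405 min of tunicamycin between 0.396 and 0.407.

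The stressed groups were also compared with each other. From 135 to 405 min of tunicamycin 6 of the 10 genes changed, Ankrd1 upwards and Acta2, Actg2, Tagln, Vcl and Ctgf downwards, where 43.7% of all genes changed in either direction. The fall of Acta2 was 0.41 on the log2 scale (SE 0.14, adjusted p = 0.0453, edgeR), and was lost without any library other than tunicamycin replicate 1 at 135 min (up to 0.143, edgeR). At 135 min, HS and tunicamycin differed for 1 member, Cyr61, which was 2.35-fold lower under HS (log2 -1.23 ± 0.18 SE, adjusted p = 0.0354, edgeR), where 2.12% of genes differed. That call was lost without any library other than HS replicate 1 (adjusted p up to 0.201, edgeR).

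At 45 min no member differed between HS and tunicamycin, with 0.204% of all genes called. An unadjusted p under 0.05 was reached by 5 members and by 24% of all genes. The DESeq2 Wald test called 4 members and 1111 of the 12731 genes. Without HS replicate 3 edgeR called 7 members, with the smallest adjusted p, 0.000794, for Tagln, but that fit also called 7087 of the 12731 genes. From 45 to 135 min no member changed under tunicamycin (0.291% of genes called) or under HS (0% of genes called). Under tunicamycin 5 members and 15.8% of all genes reached an unadjusted p under 0.05 (edgeR). Under HS 2 members and 11.6% of all genes did. DESeq2 called 1 member under tunicamycin and 2 under HS. Over all genes DESeq2 called 610 and 399 in these comparisons. The pair named by DESeq2 under HS were Cyr61, for which edgeR gave -1.59 ± 0.21 (adjusted p = 0.134) without overlap of the groups, and Ctgf, at -1.19 ± 0.29 (adjusted p = 0.236).

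The other genes of these pathways are given here as 6 lists. Of the 5 tested co-factor genes of the MRTF and TCF families, none was called at the other times or under HS, and at 405 min of tunicamycin Elk1, a TCF, rose while Mkl2, which encodes MRTF-B, Elk3 and Elk4 fell (median log2 -0.65), against 23.3% of all genes called higher and 23.5% lower there. Mkl2 went from 64.7 ± 14.8 to 17 ± 2.37 CPM (SD, n = 3, log2 -1.91 ± 0.19, adjusted p = 0.000185, edgeR), and Elk3 from 202 ± 9.49 to 77.5 ± 6.23 CPM (-1.36 ± 0.12, adjusted p = 9.15e-05, edgeR). Elk1 went from 36 ± 5.65 to 68.6 ± 4.77 CPM (SD, n = 3). Mkl1, the gene of MRTF-A, was not called, with -0.37 ± 0.26 at 405 min (adjusted p = 0.271, edgeR).

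Of 31 other cytoskeletal SRF targets, 15 fell and 4 rose at 405 min of tunicamycin (median -0.45), against 23.5% and 23.3% of all genes. Those that fell included the cytoplasmic actins Actb and Actg1, Actn1, Actn4, Myh9, Flna and Tln1, and those that rose were Zyx, Csrp1, Des and Tgfb1i1. Actb had a log2 fold change of -1.58 ± 0.31 (adjusted p = 0.00434, edgeR). The largest rise was that of Csrp1, a LIM protein of smooth muscle, from 56.8 ± 4.6 to 192 ± 5.75 CPM (1.78 ± 0.12, adjusted p = 3.17e-05, edgeR), and the largest falls were of Acta1 (-1.97 ± 0.36), then at 0.413 CPM, and Fhl1 (-1.90 ± 0.16). At 45 min of tunicamycin Lima1, Csrp1 and Tgfb1i1 were called higher and Fhl1 lower, against 4.01% and 2.17% of all genes. At 135 min of HS Csrp1 alone was called higher (0.96 ± 0.19, adjusted p = 0.0298, edgeR). Of all genes 4.75% were, so this share was not above the background. The list medians under HS were 0.62 and 0.52, with 0 and 1 of 31 genes called, against all-gene medians of -0.03 and -0.02.

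Of the 7 immediate-early SRF targets, Fos, Fosb, Egr1, Egr2 and Egr3 rose at 135 min of tunicamycin, where no member and 16 genes in all were called higher. All 5 calls were lost with the replicate number as a block, which called 0 of the 12731 genes (adjusted p = 0.0694 for each of the 5, edgeR), and without control replicate 2 or 3 or tunicamycin replicate 2 or 3. Each of these leave-out fits also called 0 genes. Egr3 went from 5.8 ± 0.989 to 33.9 ± 6.15 CPM (SD, n = 3, log2 2.56 ± 0.23, adjusted p = 0.0128, edgeR), Fosb from 1.86 ± 0.299 to 12.3 ± 5.71 CPM (2.74 ± 0.36, adjusted p = 0.0457, edgeR) and Egr2 from 5.17 ± 1.8 to 26.1 ± 1.24 CPM (2.35 ± 0.27, adjusted p = 0.0417, edgeR). At 405 min of tunicamycin Fos, Egr1, Egr2 and Egr3 were called lower, with Egr2 at -2.17 ± 0.27, Egr3 at -1.70 ± 0.20 and Fos at -1.18 ± 0.24. Ier2 alone was called higher. Of all genes, 23.5% were called lower and 23.3% higher there, so the share that rose was not above the background. Egr1 was also called lower at 135 min of HS (2.64% of all genes were), with 150 ± 28.5 CPM in the control and 73.4 ± 18.9 CPM under HS (SD, n = 3, -1.03 ± 0.25, adjusted p = 0.0492, edgeR). That call was lost without any library other than HS replicate 2 (up to 0.212, edgeR). The list medians under HS were nevertheless above 0, at 0.88 and 0.72 for 45 and 135 min, with no gene called higher. An unadjusted p under 0.05 (edgeR) was reached by 4 and 5 of the 7 genes, and by 19.5% and 29.7% of all genes. Fos went from 1.13 ± 0.152 to 6.47 ± 2.8 CPM at 45 min of HS (SD, n = 3, log2 2.51 ± 0.42, adjusted p = 0.227, edgeR).

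Of 18 Hippo and YAP components, Tead1, Lats2 and Vgll4 were called higher at 135 min of HS, against 4.75% of all genes. Vgll4, whose product competes with YAP for TEAD, went from 14.7 ± 2.37 to 50.1 ± 23.8 CPM (SD, n = 3, log2 1.77 ± 0.38, adjusted p = 0.0358, edgeR), and the Hippo kinase gene Lats2 from 57.8 ± 9.95 to 136 ± 46.9 CPM (1.23 ± 0.30, adjusted p = 0.0471, edgeR). At 405 min of tunicamycin Yap1, Tead1, Tead2, Stk4, Mobkl1b and Sav1 fell and Wwtr1, the gene of TAZ, and Mobkl1a rose, against 23.5% of all genes called lower and 23.3% higher. None of the 18 was called at 45 or 135 min of tunicamycin. At 405 min Yap1 had a log2 fold change of -0.49 ± 0.11 (adjusted p = 0.0083, edgeR) and Wwtr1 one of 0.87 ± 0.12 (adjusted p = 0.000875, edgeR).

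Of 17 other YAP targets, 8 fell and 4 rose at 405 min of tunicamycin (median -0.46), against 23.5% and 23.3% of all genes, so that the share that rose was close to the background. Dock5 fell (-1.27 ± 0.12, adjusted p = 0.00011, edgeR), while Amotl2, a scaffold that binds YAP, rose from 309 ± 19 to 600 ± 29.1 CPM (0.98 ± 0.12, adjusted p = 0.000472, edgeR). Gadd45a, a growth arrest gene that many stresses induce, had the largest change of any listed gene, from 14.1 ± 1.55 to 398 ± 42.5 CPM (SD, n = 3, log2 4.84 ± 0.17, adjusted p = 2.45e-06, edgeR). It was also called higher at 45 and 135 min of tunicamycin (3.71 ± 0.16 and 1.71 ± 0.19) and at 135 min of HS (1.99 ± 0.22). Amotl2 was called higher at 135 min of HS (1.92 ± 0.37, adjusted p = 0.0263, edgeR) and after 45 min with tunicamycin (0.80 ± 0.16), as was F3, the tissue factor gene, in the latter (0.74 ± 0.14). In this list 2 of 17 genes were called higher at 135 min of HS, against 4.75% of all genes. Under tunicamycin 4 were at 45 min and 1 at 135 min, against 4.01% and 0.126%.

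The 4 other CCN genes were split as well. Wisp1 was called higher at 135 min of HS (control 83.2 ± 22.2, HS 224 ± 44.1 CPM, SD, n = 3, log2 1.43 ± 0.26, adjusted p = 0.024, edgeR) and after 45 min with tunicamycin (0.91 ± 0.19, adjusted p = 0.0388, edgeR), and Wisp3 was called lower at 135 min of HS. Of all genes, 4.75% were called higher and 2.64% lower at 135 min of HS, and 4.01% higher at 45 min of tunicamycin. At 405 min Nov was called higher (1.02 ± 0.18) and Wisp2 (-1.03 ± 0.30) and Wisp3 lower, against 23.3% and 23.5% of all genes. No gene of the 6 lists was called at 45 min of HS, where no gene was called at all, and at 135 min of tunicamycin the called genes were Gadd45a and the 5 immediate-early genes, none of which was called with the replicate block.

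Most calls in these lists before 405 min were lost when 1 of several libraries was left out, and calls over all genes fell in those fits as well. All 9 at 135 min of HS (Csrp1, Egr1, Tead1, Lats2, Vgll4, Amotl2, Gadd45a, Wisp1 and Wisp3) were lost without control replicate 2, without control replicate 3 and without HS replicate 3 (adjusted p up to 0.212, edgeR). Those fits called 15, 11 and 11 of the 12731 genes. With the replicate block (0.143 to 0.182, edgeR) 0 genes were called there, so it could keep none of the 9, and the replicate numbers mark no pairing in that comparison. Of the 9 at 45 min of tunicamycin, Gadd45a alone passed without each library and with the block, and the other 8 were lost without control replicate 3, without tunicamycin replicate 2 and with the block. In that order these fits called 96, 58 and 21 of the 12731 genes, against 786 with all libraries and no block. At 405 min, 31 of 51 calls passed without each library in turn and 46 with the block. Among the genes named here, Elk4, Actg1, Actn1, Tln1, Zyx, Des, Tead1, Stk4, Mobkl1a, Sav1, Wisp2 and Wisp3 lost their call without at least 1 library.

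**Figure D5:**
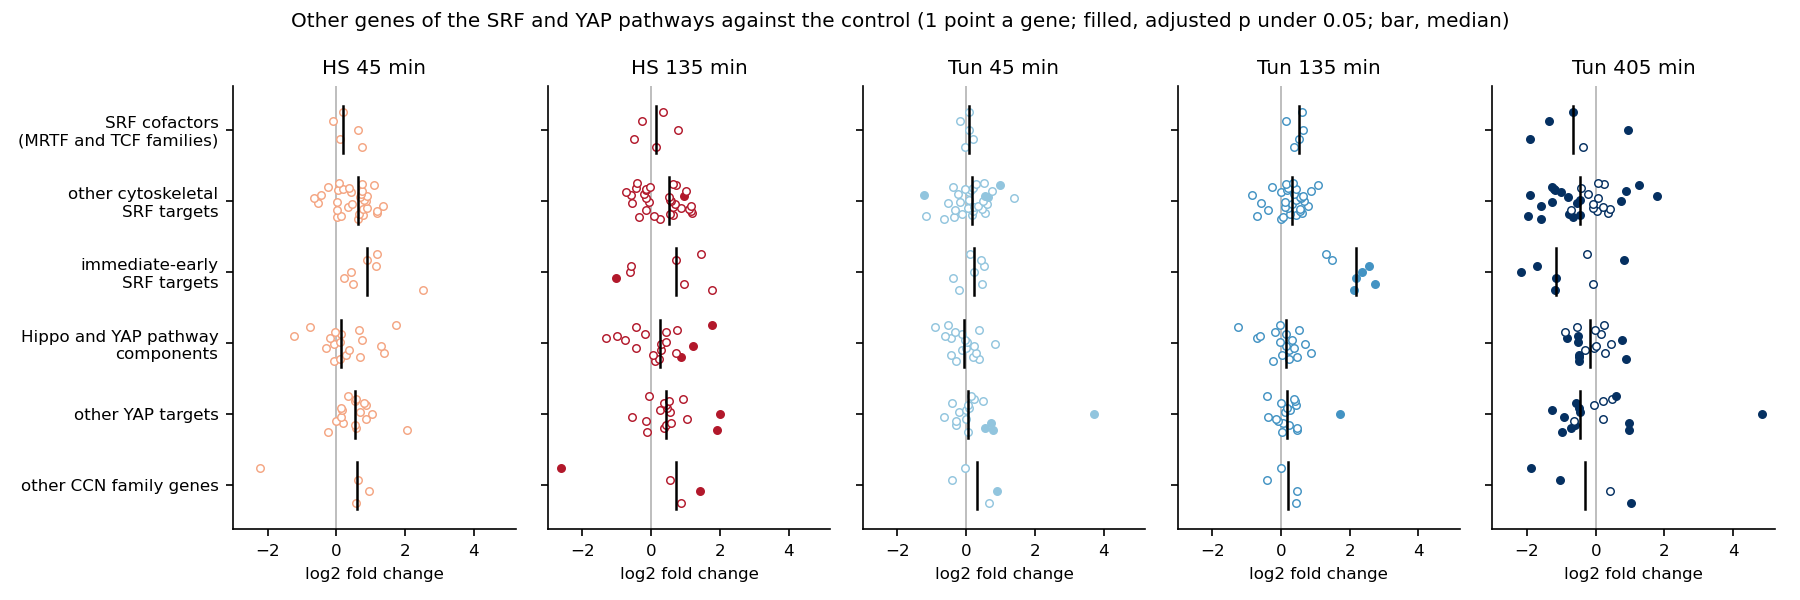
Log2 fold change against the control (horizontal axes) of each tested gene of the 6 lists in the 5 comparisons, 1 point a gene, filled for an adjusted p under 0.05, with a bar at the list median. The immediate-early targets sit far to the right at 135 min of tunicamycin (median 2.18) and to the left at 405 min (median -1.16), and Gadd45a stands alone at 4.84.

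Over the 18 libraries, the genes outside the set whose log2 CPM followed a member most closely were named by Pearson r, as a description, since the points share libraries, groups and the axis of GC content. For Srf they were 2310021P13Rik (r = 0.98), Zfp628 and Iqsec2 (both 0.969). For Acta2 they were Ergic1 (0.896), Cd99l2 (0.885) and Masp1 (0.883). For Ctgf they were Adam19 (0.957), Phf19 (0.954) and Iqgap3 (0.953), of which Adam19 averaged 104 CPM in the control and 39.8 CPM at 405 min of tunicamycin. For Cyr61 they were Ccrn4l (0.904), 2610014I16Rik (0.867) and 4931440P22Rik (0.857).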

How the data were processed

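mRNA-seq files of 18 libraries were analysed, 3 in each of 6 groups mapped from the labels. Poly(A) RNA was sequenced and, per the submitters' notes, aligned to mm9. The aligner and counter versions are not given in the sources used here. The methods name a manual library kit and an automated one without saying which libraries each made. Deposited for each library is an estimated count of reads for each of 20207 RefSeq genes, not normalized, of which 17.7% to 23.2% of the low values were not whole. The authors also gave RPKM, made from the count, gene length and library total. A score (each RPKM as SDs from its library's mean) and a signal (RPKM over the root mean square of its library) were deposited too and were not used here.

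Estimated counts were rounded. Each pair of groups, 3 libraries each, was fitted in R 4.3.3 with edgeR 4.0.16 (TMM, quasi-likelihood test) on the 12731 genes that had 1 read or more in each of the 18 libraries, with Benjamini-Hochberg adjustment over them. SE are the log2 fold change over the root of the F statistic. CPM are scaled by TMM over the 18 libraries, so folds can differ slightly from ratios of mean CPM. RPKM served for levels between genes. The 10 members and the 7 lists were chosen with earlier results of these data known. The result of 1 list is not reported here. Named from the lists, for each list and comparison, are up to 3 called genes with the largest change among those with at least 50 reads on average in the higher group. Other list genes were named after their values were seen. Pattern genes are the 3 with the highest Pearson r of log2 CPM (prior count 1). Transcript GC, from GENCODE on mm9, was known for 97.6% of the tested genes and all 10 members.

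Alternatives were no filter, filterByExpr, DESeq2 1.42.0 (size factors and Wald test), library totals, 1 fit over all 6 groups, a block on the replicate number, 1 surrogate variable (sva 3.50.0), a GC offset (lowess span 0.3) alone and with the block, a bound of 1 on the absolute log2 fold change, and leaving out each library. Same-numbered libraries of the control and of tunicamycin at 135 min deviated together (correlations of 0.187 to 0.284), so that pair of groups may be paired by number. The values reported for it are nevertheless from the fit without a block. As an alternative, the block called no member there and took the called genes from 17 to 0. On simulated counts for 405 min of tunicamycin over 12731 genes, 94 of 98 genes changed by 2 on the log2 scale and 70 of 102 changed by 1 were recovered. For 135 min of HS, 73 of 107 and 7 of 93 were. False calls numbered 14 and 6. Each gene was drawn on its own, without the axis of GC content that the replicates share, so these shares may not hold for the real libraries.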

Additional observations from a re-analysis of the deposited data

Results flagged for a closer look

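Stressed groups were set against each other directly, and 7 differences among the 10 genes passed the threshold (edgeR's quasi-likelihood test, Benjamini-Hochberg adjusted), which is why they are listed here. Between 135 and 405 min of tunicamycin, log2 fold changes were 1.06 for Ankrd1, -1.91 for Ctgf, -1.03 for Vcl, -1.02 for Actg2, -0.95 for Tagln and -0.41 for Acta2, while Cyr61 gave -0.16 (adjusted p = 0.332). At 135 min Cyr61 differed by -1.23 between HS and tunicamycin, the only one of the 10 genes past the threshold in that comparison.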

How the results depend on the processing

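The changes at 405 min of tunicamycin depended least on the processing: Actg2, Tagln, Vcl, Ctgf and Ankrd1 passed in all 16 alternatives other than the bound of 1, Acta2 in 15, Cyr61 in 14 and Cnn1 in 10. That bound, not among the 16, was not met by Vcl (log2 -0.61), Acta2, Cyr61 and Cnn1. Members called at 45 min of HS numbered 1 higher and 1 lower by DESeq2, 2 and 1 with a shared fit of all groups, and 3 and 2 with 1 surrogate variable. These settings called 446, 1345 and 3407 of the 12731 genes. At 135 min of HS 1 was called higher with a shared fit, a surrogate variable or a GC offset, and 4 lower with a surrogate variable. Of all genes, 1829, 2789 and 1294 were called higher in these settings, and 3216 lower with the surrogate variable. At 45 min of tunicamycin the bound of 1 on the log2 fold change left 0 higher and 2 lower, and a shared fit 2 lower, and at 405 min that bound left 1 and 3. The bound left 238 higher and 69 lower of all genes at 45 min and 1149 and 1399 at 405 min, and the shared fit 209 lower at 45 min. At 135 min of tunicamycin a shared fit called 1 and 1, a surrogate variable 2 and 2, and DESeq2 and the GC offset 1 lower each. The all-gene counts were 233 and 178 with the shared fit, 1080 and 1139 with the surrogate variable, and 304 and 123 lower by DESeq2 and the GC offset. Between HS times DESeq2, the shared fit and the surrogate variable called 2 and the GC offset 1, and between 45 and 135 min of tunicamycin DESeq2 called 1. All-gene counts in that order were 399, 905, 2785 and 127, and 610. Between HS and tunicamycin at 45 min DESeq2 called 4, the shared fit and the surrogate variable 3 and the GC offset 1, and at 135 min no filter, library totals, DESeq2, the shared fit and the GC offset called 2 and the surrogate variable 3. Over all genes, in the same order, 1111, 1270, 1592 and 584 were called at 45 min, and 284, 484, 1256, 1771, 1540 and 4775 at 135 min.

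With the replicate number as a block, 0 members were called at 135 min of HS, 0 at 45 min of tunicamycin and 0 between HS and tunicamycin at 135 min, where the GC offset with the block gave 2 lower, 1 higher and 3 lower, and 0. Over all genes the block called 0, 21 and 0 there, and the GC offset with the block 818, 497 and 0. At 405 min of tunicamycin the block gave 2 higher and 5 lower. Same-numbered libraries correlated at -0.349 to 0.19 for 135 min of HS, -0.302 to 0.166 for 45 min and -0.0889 to 0.00577 for 405 min of tunicamycin, so there the numbers mark no pairing, and not every library was closest to its own number.

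Leaving out 1 library gave 0 to 3 members higher and 0 to 2 lower at 45 min of HS, 0 to 1 and 0 to 3 at 135 min of HS, 0 to 3 and 1 to 4 at 45 min and 1 to 4 and 5 to 6 at 405 min of tunicamycin, 0 to 7 between HS and tunicamycin at 45 min and 0 to 1 at 135 min. The highest counts at 45 min of HS came without HS replicate 3, where 5786 of the 12731 genes were called against the control and 7087 against tunicamycin. Without HS replicate 1 at 135 min 2467 were called, and without control replicate 1 2499 at 45 min and 7897 at 405 min of tunicamycin. Signs turned only among values that were not called in the reported comparison. Against the control these were Cnn1 at 45 min of HS (-0.01 with a surrogate variable, -0.02 to 0.68 with 1 library left out), Tagln at 135 min of HS (-0.10 with library totals, -0.04 with a surrogate variable, -0.03 and -0.06 with the GC offset alone and with the block, -0.10 to 0.35 with 1 library left out), Myl9 at 135 min of HS (-0.13 and -0.12 with the 2 GC offsets), Srf (-0.03 to 0.58) and Myl9 (-0.34 to 0.10) at 45 min of tunicamycin with 1 library left out, and Myl9 at 135 min of tunicamycin (-0.02 with a surrogate variable, -0.08 with either GC offset, -0.08 to 0.37 with 1 library left out). Between HS times Cnn1 was -0.02 with the GC offset, and with 1 library left out Acta2 ran from -0.54 to 0.33, Actg2 from -0.42 to 0.24, Tagln from -0.41 to 0.04, Cnn1 from -0.27 to 0.45 and Ankrd1 from -0.04 to 0.20. Between HS and tunicamycin, library totals gave -0.02 for Acta2 and -0.03 for Cyr61 at 45 min and -0.07 for Myl9 at 135 min, where the GC offsets gave -0.05 and -0.04. With 1 library left out, Acta2 ran from -0.33 to 0.55 and Actg2 from -0.02 to 0.65 at 45 min, and Srf from -0.37 to 0.19 and Myl9 from -0.05 to 0.32 at 135 min. The cause of these shifts was not tested.

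Cnn1 (24 to 98 reads) and Actg2 (74 to 595 reads) had the fewest reads, and counting error bears most on them. For the other members the spread between 3 libraries limits the precision.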
